A study of Mus musculus with 6 samples.

Results

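A pair of mutually exclusive exons is a set of neighbouring exons of which a transcript carries 1 and leaves out the other. When the lengths of both exons leave the same remainder on division by 3, swapping them keeps the reading frame of the exons that follow. The events described here are those in which the remainders differ, so that a swap shifts the downstream frame. In the authors' deposited table of mutually exclusive exons, 4615 of 7796 events had exons of different frame by this rule. Of these, 4389 had a mean of at least 20 reads over 6 libraries and form the set described below, and 226 did not. The 4389 pairs lay in 2452 genes and drew on 6782 separate exons, and 51.1% of the pairs shared an exon with another pair of the set, so the pairs are not independent of each other. Pairs whose exons matched in frame numbered 2969 at the same minimum of reads and serve as the comparison.

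The libraries were poly(A) RNA from small-intestinal crypt cells of C57BL/6 mice aged 60 days. The 3 samples labelled WT carried floxed Ptbp1 alleles with no Cre (Ptbp1f/f). The 3 labelled PTBP1_KO carried the same alleles together with a tamoxifen-inducible Cre under the Villin promoter, which is active in the intestinal epithelium (Ptbp1f/f;Vil-creER+/-). Tamoxifen was injected in both groups, daily for 2 days at 100 mg/kg, and crypts were collected 20 hours after the last injection. Each splicing table has a first set with 3 libraries and a second set with 3, and the headers name neither the genotype of a set nor the animal behind a library. Directions are therefore given as higher in the first or in the second set, with no genotype attached. Nothing in the labels says whether libraries of a group came from separate animals, so the authors' p-values measure the spread between these libraries only.

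PTBP1 is a polypyrimidine tract binding protein. It binds pyrimidine-rich RNA near splice sites and often represses the inclusion of nearby exons, and mutually exclusive exons of the tropomyosin and pyruvate kinase genes are classical examples of its targets. Classical pairs mostly match in frame, since both exons encode alternative versions of the same protein segment. Where exons of unequal frame are swapped, 1 of the forms usually reads into a stop codon in another frame. A stop codon more than about 50 nt before the last exon junction can mark a transcript for nonsense-mediated decay, the pathway that degrades messages with premature stops.

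The exons below are examples from changed pairs described later, chosen to show where a stop codon falls, and lie wholly within coding sequence (sequences from GENCODE M21 transcripts, GRCm38, the same assembly as mm10). They are written 5′ to 3′ in the sense of the gene. Capitals mark the stop codon at which the reading frame ends when the exon is carried without its partner between the flanks that the event names.
Ptbp1 first exon, chr10:79860824-79860969, plus strand, 146 nt: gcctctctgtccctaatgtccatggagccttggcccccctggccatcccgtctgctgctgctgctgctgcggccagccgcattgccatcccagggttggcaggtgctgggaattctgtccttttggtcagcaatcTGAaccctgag
Ptbp1 second exon, chr10:79862014-79862047, plus strand, 34 nt: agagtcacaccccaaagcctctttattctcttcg
Tead3 first exon, chr17:28340154-28340218, minus strand, 65 nt: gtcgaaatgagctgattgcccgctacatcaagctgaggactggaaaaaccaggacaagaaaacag
Tead3 second exon, chr17:28336511-28336573, minus strand, 63 nt: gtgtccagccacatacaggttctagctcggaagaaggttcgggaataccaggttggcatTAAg
Pkp4 first exon, chr2:59347924-59348041, plus strand, 118 nt: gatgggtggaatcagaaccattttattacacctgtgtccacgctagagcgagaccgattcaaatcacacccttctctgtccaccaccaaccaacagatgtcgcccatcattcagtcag
Pkp4 second exon, chr2:59350494-59350622, plus strand, 129 nt: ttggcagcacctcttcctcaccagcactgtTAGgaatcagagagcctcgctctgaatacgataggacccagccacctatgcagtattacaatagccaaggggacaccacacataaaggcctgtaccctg
Spa17 first exon, chr9:37607617-37607687, minus strand, 71 nt: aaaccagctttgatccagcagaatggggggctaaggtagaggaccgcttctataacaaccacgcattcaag
Spa17 second exon, chr9:37605793-37605870, minus strand, 78 nt: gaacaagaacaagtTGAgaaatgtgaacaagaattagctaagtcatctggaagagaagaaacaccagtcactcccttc
The same kind of listing for 3 genes shows exons in which no stop codon was found inside the exon itself, or for which no frame could be compared.
Magohb first exon, chr6:131289389-131289447, minus strand, 59 nt: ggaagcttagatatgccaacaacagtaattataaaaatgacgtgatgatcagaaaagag
Magohb second exon, chr6:131288036-131288146, minus strand, 111 nt: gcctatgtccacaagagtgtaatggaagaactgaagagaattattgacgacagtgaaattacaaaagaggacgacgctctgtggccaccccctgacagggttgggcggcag
Anxa7 first exon, chr14:20467458-20467523, minus strand, 66 nt: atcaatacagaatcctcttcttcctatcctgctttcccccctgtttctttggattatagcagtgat
Anxa7 second exon, chr14:20464844-20464946, minus strand, 103 nt: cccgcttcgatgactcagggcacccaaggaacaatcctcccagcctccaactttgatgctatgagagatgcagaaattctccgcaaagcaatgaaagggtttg
Relch first exon of one pair, chr1:105740435-105740517, plus strand, 83 nt: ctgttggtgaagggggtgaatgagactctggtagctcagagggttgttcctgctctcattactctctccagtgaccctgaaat
Relch first exon of the other pair, chr1:105741013-105741095, plus strand, 83 nt: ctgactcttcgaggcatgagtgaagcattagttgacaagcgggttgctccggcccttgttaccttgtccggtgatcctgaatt
Relch second exon of both pairs, chr1:105741297-105741360, plus strand, 64 nt: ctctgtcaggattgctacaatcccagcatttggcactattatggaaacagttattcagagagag
The 83-nt exons of Relch were of equal length and had the same base at 51 of 83 positions (61.4%) when set side by side without gaps.

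The reads behind each pair were the sum of those assigned to either form. A form is the transcript with the first exon alone, or with the second exon alone, in the order of transcription. The length the authors gave a form exceeded the length of its exon by 144 nt in 7358 of 7358 events with enough reads, so each form counted reads inside the exon as well as reads across its junctions. The level of a pair is the share of the form with the first exon, after division of the reads by these lengths. The 4389 pairs held 5006095 to 6514768 reads per library. The median pair had a mean of 367.5 reads and the best-covered had 143900. The median level over all pairs was 0.433 and the middle 50% of pairs lay between 0.271 and 0.603. By library, the median level was 0.430, 0.440 and 0.448 in the first set and 0.425, 0.428 and 0.425 in the second.

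The annotation did not bear out the name of the class for most members. For 4272 of 4389 pairs (97.3%) an annotated transcript carried both exons, and for 3882 (88.4%) it carried them side by side. Transcripts with either exon alone between the flanks, and none with both, were annotated for 49 pairs (1.12%), against 74 (2.49%) of the pairs of matching frame. The deposited table of skipped exons gave the same picture from its own reads, which overlap those of the pair. Inclusion of an exon is its share against transcripts that skip it, here pooled over 6 libraries for the skipped-exon event with the most reads. Differences as a skipped exon, given below, are those of the event of that exon with the smallest p, which can be another event. Both exons were listed there for 4020 pairs, and both were included at 0.95 or more in 3283 of these (81.7%). The sum of both inclusions, which is 1 when a transcript carries either exon but not both, had a median of 1.989. It lay between 0.8 and 1.2 in 99 pairs (2.46%), against 4.68% of the pairs of matching frame. In 81 of those 99 pairs 1 exon was included at 0.8 or more and the other at 0.2 or less. Both exons were at 0.2 to 0.8 in 3 of them.

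**Figure D1:**
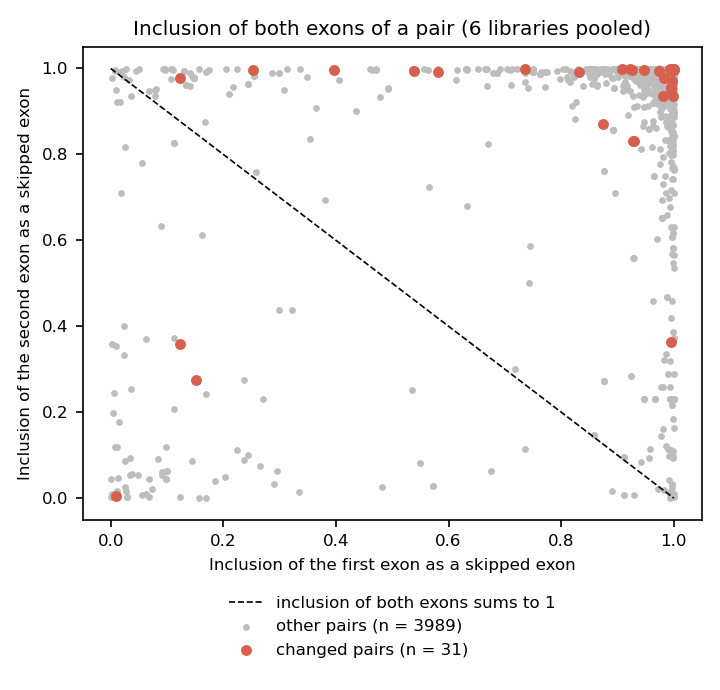
Inclusion of the first exon (x axis) against that of the second exon (y axis) for the 4020 pairs whose exons are both listed in the table of skipped exons, pooled over 6 libraries; the dashed line marks a sum of 1. Most pairs lie in the upper right corner, with both exons near full inclusion, and 1 of the 31 changed pairs has a sum between 0.8 and 1.2.

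The 5 genes with the most reads show this arrangement. Reg3b and Reg3g encode antimicrobial lectins of the gut, Tpt1 the translationally controlled tumor protein, Rbp2 a retinol-binding protein of enterocytes and B2m the light chain of class I histocompatibility molecules. In each of them the inclusion of either exon as a skipped exon was above 0.999. The level of the Reg3b pair (119 and 138 nt) was 0.267, 0.257 and 0.277 in the first set and 0.265, 0.252 and 0.285 in the second. The sets overlapped. For Tpt1 (106 and 117 nt) the levels were 0.487, 0.484 and 0.525 against 0.465, 0.457 and 0.451. The sets of Tpt1 did not overlap, yet in the authors' deposited table its difference was 0.041 with an FDR of 0.394. None of the 5 pairs changed. With both exons in nearly every transcript, these levels set the read density of the first exon against that of the second.

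Reading frames were rebuilt for 3706 pairs. The shares given here are of 2798 of them, in which an annotated coding transcript holds the flanks with nothing skipped besides the pair. With both exons in place, 94.9% of these pairs kept the annotated stop codon. Where the coding transcript used already carries both exons, it keeps its stop by construction. An annotated transcript carried both side by side for 88.4% of all members, so the 94.9% is no independent result. With the first exon alone 34.6% kept the annotated stop codon, with the second alone 35.2%, and with neither 30.5%. An early stop codon, more than 50 nt before the last junction, was read in 49.8% of the forms with the first exon alone and in 59.8% of those with the second alone. In the 1921 pairs of matching frame that could be compared, the annotated stop codon was kept with the first exon alone in 61.9% and with the second alone in 62.5%. This gap between the classes follows in part from the rule that chose them. Among the members, the first exon was a multiple of 3 in 34.8%, the second in 34.5%, and neither was in 30.7%. In that last group the lengths of both exons add up to a multiple of 3, so that carrying both, or neither, leaves the downstream frame alike.

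**Figure D2:**
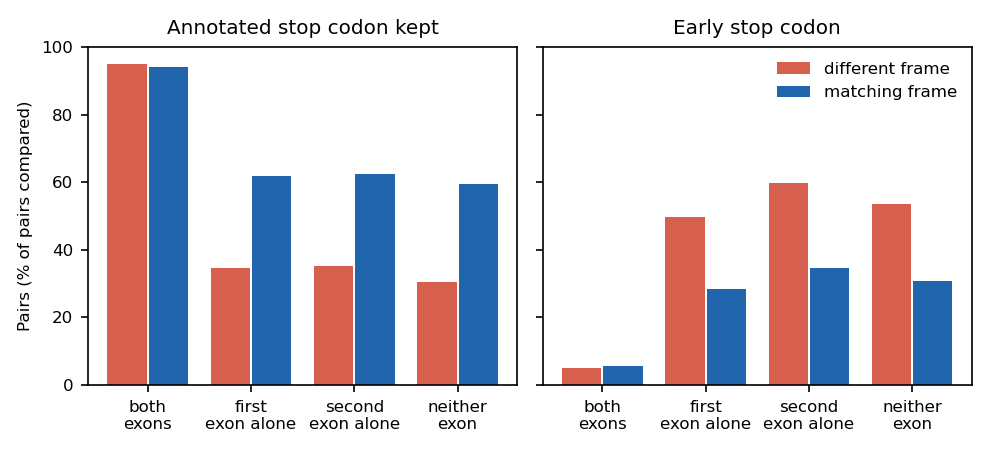
Share of pairs (y axis, percent of pairs compared) that keep the annotated stop codon (left) or meet an early stop codon (right) when a transcript carries both exons, the first alone, the second alone or neither (x axis), for 2798 pairs of different frame and 1921 of matching frame. With both exons 94.9% of the pairs of different frame keep the annotated stop, and with 1 exon 34.6% or 35.2% do. A coding transcript that already carries both exons keeps its stop by construction, so the share with both exons is no independent result.

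A pair was called changed when the authors' FDR was below 0.05 and their difference of level between the sets was at least 0.1. By this rule 35 pairs in 31 genes changed, 0.797% of 4389, beside 1.02% of all 7358 events with enough reads and 1.35% (40) of those of matching frame. The level was higher in the first set in 21 of the 35 and in the second set in 14. Over all events, 0.571% were called higher in the first set and 0.448% higher in the second. The FDR alone was passed by 85 pairs (1.94%), against 2.46% of all events, and 50 of the 85 had a difference under 0.1. The median absolute difference over all members was 0.018. The changed pairs had a median of 166.8 reads, below the median of all members.

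The 3 levels of one set lay wholly above the 3 of the other in 638 pairs (14.5%), beside 14.4% of all events. The first set was higher in 465 of these and the second in 173, so the first set was higher in 72.9%, beside 70.3% (294 and 124) of the pairs of matching frame. After each library was centred on its own median level, 215 pairs were higher in the first set and 618 in the second, so this share fell to 25.8%. The direction of the small differences thus turned with the centring. Of the 35 changed pairs, 32 had sets that did not overlap as measured, and the 20 with the largest differences, 1 per gene, kept their direction and a difference of at least 0.1 after centring. Centring moved each of these by nearly the same small amount (Clk4, described below, from 0.141 to 0.130). Differences of this size could therefore hardly turn, and the result says little about them.

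**Figure D3:**
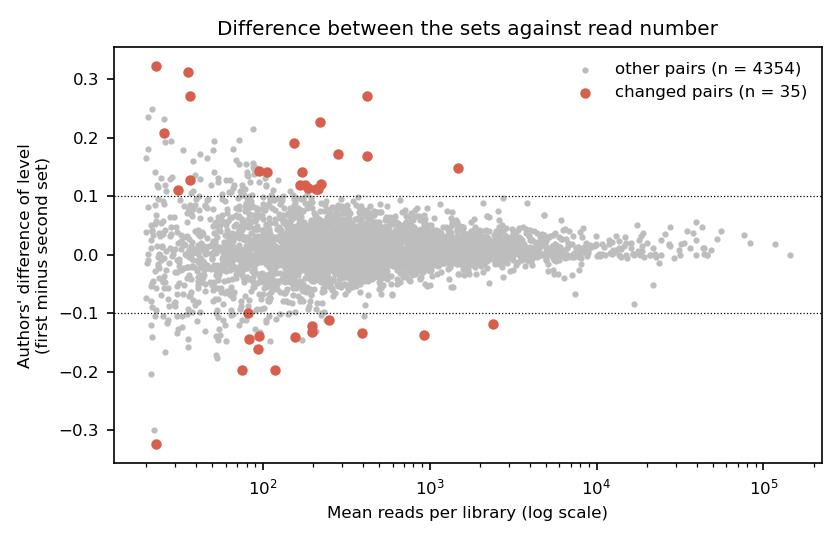
Authors' difference of level between the sets (y axis, first minus second set) against the mean reads per library (x axis, log scale) for 4389 pairs; dotted lines mark differences of 0.1 and -0.1. The 35 changed pairs have between 23.0 and 2410 mean reads, and above that number no pair passes the dotted lines.

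Among genes that act on RNA, Magohb, Ptbp1, Clk4 and Eif4enif1 held changed pairs. Magohb encodes a core subunit of the exon junction complex, which marks spliced junctions and triggers nonsense-mediated decay. Its pair joined a 59-nt and a 111-nt coding exon. The level was 0.346, 0.312 and 0.330 in the first set and 0.0542, 0.0356 and 0.0816 in the second. Every library of the first set was above every library of the second, and in the authors' deposited table the difference was 0.272 with an FDR listed as 0. As a skipped exon, the 59-nt exon was included at 0.923 overall and went the other way, with a difference of -0.142 in the authors' deposited table and an FDR listed as 0.

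Ptbp1, the gene targeted in these mice, held 2 members, 1 of which changed. It joined the 146-nt exon that meets a TGA in the frame compared and the 34-nt exon shown above. The flanks of this event (chr10:79856504-79856534 and chr10:79862449-79862541) skip 6 annotated exons of the coding transcript. The 34-nt exon is the alternative exon whose skipping shifts the frame of the message and lowers the yield of PTBP1 protein. The level was 0.330, 0.365 and 0.340 in the first set against 0.166, 0.194 and 0.167 in the second. The sets lay apart, and the authors' deposited table gave a difference of 0.169 with an FDR of 5.63e-12. As a skipped exon the 146-nt exon was included at 0.999, so it was left out of few transcripts. The 34-nt exon was included at 0.935, and in the authors' deposited table it differed by 0.026 (FDR 0.0206), under the minimum used here. As a skipped exon it was thus slightly more included in the first set, while in the pair the form with it was lower there. The other Ptbp1 member (31 and 146 nt) had a pooled level of 0.00219 and a difference of -0.002 in the authors' deposited table.

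Clk4 encodes a kinase that phosphorylates SR splicing factors, and its pair joined exons of 67 and 59 nt. Its levels were 0.226, 0.248 and 0.303 in the first set and 0.159, 0.0997 and 0.0943 in the second. The sets did not overlap, and the difference was 0.141 with an FDR of 9.41e-06 in the authors' deposited table. In the rebuilt frames the form with neither exon kept 481 codons, the form with the first exon ended after 53 and the form with the second after 76. As skipped exons they were included at 0.123 and 0.358 in the events with the most reads. In the event with the smallest p the 59-nt exon was included at 0.882. Whether the 59-nt exon was mostly left out thus depends on the event, while the 67-nt exon was left out more often than carried.

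Eif4enif1 encodes the transporter of the cap-binding factor eIF4E, and its levels were 0.261, 0.430 and 0.389 in the first set and 0.578, 0.549 and 0.544 in the second. The second set was higher, with a difference of -0.197 and an FDR of 0.00954 in the authors' deposited table. Its 72-nt exon was included at 0.582 in the skipped-exon event with the most reads. Neither of its exons changed in the events with the smallest p, where inclusion was 0.983 and 0.985.

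Genes of cell junctions and membrane traffic followed. Ctnnd1 encodes p120 catenin, which holds E-cadherin at the cell surface, and its pair was the best covered among these genes, with a mean of 1474 reads. The level was 0.315, 0.268 and 0.316 in the first set against 0.146, 0.146 and 0.159 in the second. The sets lay well apart, and the authors' deposited table gave a difference of 0.149 with an FDR listed as 0. Its first exon (289 nt, chr2:84624270-84624558) changed the same way as a skipped exon, by 0.267 in the authors' deposited table, while the second was included at 0.997. Pkp4 encodes plakophilin 4, an armadillo protein of junctions, and its levels were 0.795, 0.795 and 0.712 against 0.920, 0.899 and 0.894. The second set was higher, with a difference of -0.137 and an FDR listed as 0 in the authors' deposited table. Its second exon (129 nt) was included at 0.364 as a skipped exon and was more included in the first set, by 0.280 in the authors' deposited table. In Pkp4 the form without the 129-nt exon kept 1147 codons, and the form without the 118-nt exon met the TAG shown above.

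Anxa7 encodes an annexin, a calcium-dependent phospholipid-binding protein, and held 2 changed pairs. The 66-nt and 103-nt pair had levels of 0.242, 0.168 and 0.279 in the first set and 0, 0.00520 and 0 in the second. The 66-nt exon was thus almost without reads in the second set, and in the authors' deposited table the difference was 0.228 with an FDR listed as 0. This was the 1 changed pair whose inclusions as skipped exons summed to between 0.8 and 1.2 (0.123 and 0.979), and the 66-nt exon changed the same way there, by 0.249 in the authors' deposited table. An annotated transcript carries both of these exons side by side. The other pair (102 and 65 nt) had levels of 0.493, 0.500 and 0.593 against 0.353, 0.339 and 0.374. The authors' deposited table gave it a difference of 0.173 with an FDR of 6.60e-05, and both of its exons were included above 0.99.

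Relch encodes a protein of recycling endosomes that takes part in cholesterol transport, and held 3 members that share the 64-nt exon, 2 of which changed. With the upstream 83-nt exon the levels were 0.276, 0.338 and 0.194 in the first set and 0.159, 0.0748 and 0.143 in the second. With the downstream 83-nt exon they were 0, 0 and 0.0317 against 0.0941, 0.149 and 0.0897. The 2 changed pairs went in opposite directions, by 0.144 (FDR 0.0185) and -0.100 (FDR 1.91e-05) in the authors' deposited table. The remaining member has the downstream 83-nt and the 64-nt exon, with the upstream 83-nt exon as its flank, and more reads (mean 119.3 against 81.8), and its difference was -0.005 with an FDR of 1 in the authors' deposited table. As skipped exons the upstream 83-nt exon differed by 0.485 and the downstream one by -0.247 in the authors' deposited table, while the 64-nt exon was included at 0.996. The 83-nt exons match each other in frame, so the events that pair them fall outside the class, and the authors' deposited table gives these events differences of 0.358 and 0.430 (named after their values were seen). Usp6nl, which encodes a GTPase-activating protein for Rab5, had levels of 0.603, 0.647 and 0.695 against 0.486, 0.213 and 0.278. The sets did not overlap, and the difference was 0.323 with an FDR of 0.0219 in the authors' deposited table. Its thinnest library held 11 reads, with a 95% exact Clopper-Pearson interval of 0.279 to 0.876 on the level, for counting error only.

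Transcription and signalling genes included Tead3, a DNA-binding partner of YAP and TAZ. The level of its pair (65 and 63 nt) was 0.387, 0.404 and 0.426 in the first set and 0.165, 0.264 and 0.214 in the second. The sets lay apart, with a difference of 0.191 and an FDR of 1.35e-05 in the authors' deposited table. Both Tead3 exons were included above 0.99 as skipped exons. With the first exon alone the frame kept 444 of 465 codons, and with the second alone it ended after 113, at the TAA shown above. Traf7, an E3 ubiquitin ligase, held 2 changed pairs that differ by 3 nt at the start of the first exon. The longer had levels of 0.254, 0.202 and 0.214 against 0.427, 0.348 and 0.375, and the second set was higher in both pairs, by -0.160 (FDR 0.00817) and -0.139 (FDR 0.0499) in the authors' deposited table. Zfp280d encodes a zinc finger protein, and its levels were 0.162, 0.103 and 0.278 against 0.436, 0.285 and 0.413. The sets just failed to meet, with a difference of -0.197 and an FDR of 0.0358 in the authors' deposited table.

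Tmem173 encodes STING, the sensor of cyclic dinucleotides, and its pair had levels of 0.161, 0.171 and 0.0691 against 0.268, 0.323 and 0.204. The second set was higher, with a difference of -0.131 and an FDR of 0.00194 in the authors' deposited table. Without the third library of the first set the difference fell short of the minimum, at -0.0992. Fkbp1a encodes the binding protein of FK506 and rapamycin, and its exons (128 and 91 nt) were annotated only in non-coding transcripts. Its levels were 1, 0.751 and 0.797 against 0.414, 0.751 and 0.448, so the sets touched. The difference was 0.312 with an FDR of 0.0149 in the authors' deposited table, and the exons were included at 0.0103 and 0.00466 as skipped exons, so both were rare. Its thinnest library held 18 reads, with an interval of 0.487 to 0.927 on the level.

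Genes of the cytoskeleton and cilia were Kif24, a kinesin that limits the growth of cilia, Sfi1, a centrin-binding protein, and Spa17, which holds a docking domain of protein kinase A anchors. Kif24 levels were 1, 0.890 and 1 in the first set and 0.881, 0.639 and 0.742 in the second. The difference was 0.209 with an FDR of 0.00150 in the authors' deposited table, and the thinnest library held 15 reads with an interval of 0.726 to 1 on the level. Sfi1 held 2 changed pairs that share the 136-nt exon, higher in the second set by -0.143 (FDR 0.0119) and -0.133 (FDR 0.000301) in the authors' deposited table. The levels of the first of these (105 and 136 nt) were 0.812, 0.656 and 0.697 against 0.891, 0.802 and 0.901, so the sets overlapped. The other (917 and 136 nt) had 0.807, 0.749 and 0.802 against 0.943, 0.936 and 0.877, with no overlap. Spa17 levels were 0.387, 0.366 and 0.313 against 0.184, 0.227 and 0.229. The first set was higher, with a difference of 0.142 and an FDR of 0.0197 in the authors' deposited table. The Spa17 form with the second exon alone ended after 56 of 149 codons, at the TGA shown above. As skipped exons its exons were included at 0.926 and 0.996, and neither changed. No annotated transcript carries either of them alone between the flanks.

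In N4bp2 and Firre the exons that differed lie outside any coding frame. N4bp2, named for its binding to the ubiquitin ligase Nedd4, had the largest difference of all members, in exons that are untranslated. Its levels were 0.482, 0.933 and 0.437 in the first set and 1, 0.823 and 1 in the second. The sets overlapped, and 13 reads stood behind the thinnest library, with an interval of 0.212 to 0.784 on the level. The authors' deposited table gave a difference of -0.324 with an FDR of 0.00111, while the first exon differed the other way as a skipped exon, by 0.171. Firre is a long non-coding RNA that helps to shape nuclear architecture, and its levels were 0.582, 0.460 and 0.648 against 0.260, 0.386 and 0.228. The first set was higher throughout, with a difference of 0.272 and an FDR of 0.0197 in the authors' deposited table.

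**Figure D4:**
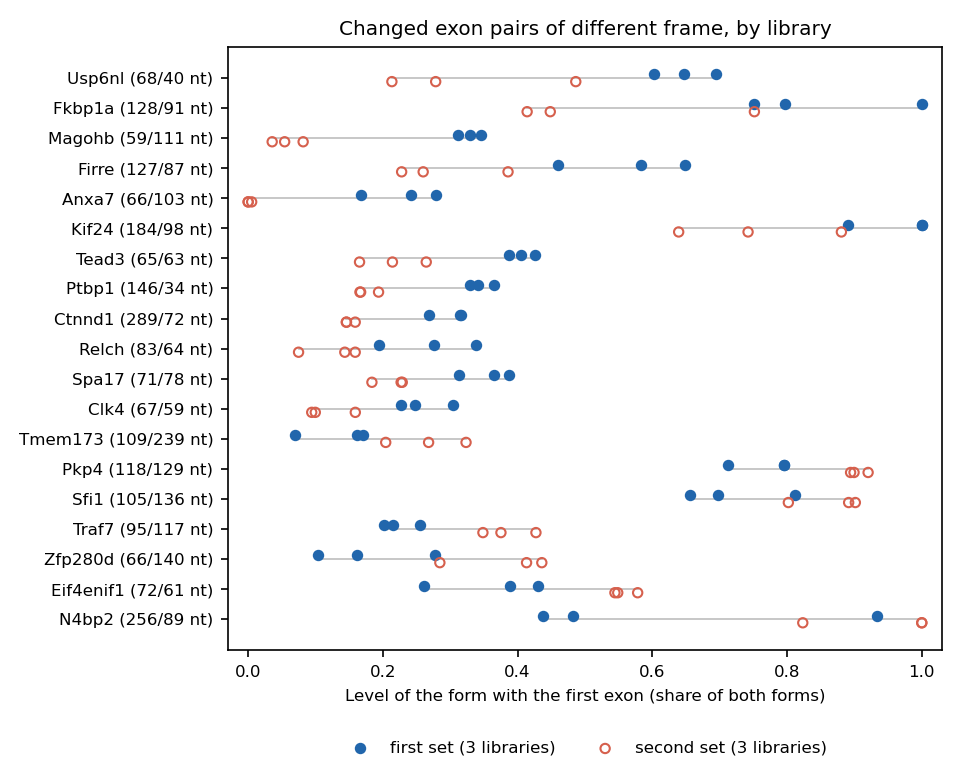
Level of the form with the first exon (x axis, share of both forms) in each of 6 libraries for the changed pair with the largest difference in each of 19 genes (rows, with both exon lengths in nt); filled points are the first set and open points the second. The sets do not overlap in 16 of the 19 rows; N4bp2, Fkbp1a and Sfi1 are the exceptions.

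The other 11 genes with a changed pair had absolute differences between 0.111 and 0.128. Those higher in the first set were Zfp426, Eef1akmt2, Med15, Klc1, Mettl2, Mettl17, Selenoi and Sh3d21. Tmem234, Ccdc34 and 4833439L19Rik were higher in the second. Klc1, a light chain of kinesin, had levels of 0.218, 0.154 and 0.135 against 0.0396, 0.0496 and 0.0602. Its 51-nt exon went the other way as a skipped exon, by -0.225 in the authors' deposited table. Ccdc34, a coiled-coil gene, had the most reads of the changed pairs (mean 2410), with levels of 0.571, 0.470 and 0.546 against 0.640, 0.642 and 0.660. Both Ccdc34 exons were included above 0.998, and neither changed as a skipped exon.

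In 2 of these genes the form with the first exon had no reads in the second set. Zfp426, which encodes a zinc finger protein, had levels of 0.201, 0.0622 and 0.121 in the first set and 0 in all 3 libraries of the second. Sh3d21, which encodes a protein with an SH3 domain, had 0.043, 0.139 and 0.150 against 0 in all 3. Their mean reads were 36.8 and 31.0, so these levels rest on few reads. As skipped exons, the first exons of both genes were included at 0.982, pooled over 6 libraries, and neither changed there. A level of 0 in the pair is thus not a loss of the exon from most transcripts. Tmem234, a membrane protein gene, held a pair of 219 and 92 nt in which both exons are annotated for decay transcripts and no transcript carries both. Its levels were 0.322, 0.301 and 0.236 against 0.378, 0.476 and 0.367. The second set was higher, and the 219-nt exon changed the same way as a skipped exon, by -0.241 in the authors' deposited table (FDR 0.000300). The exons were included at 0.151 and 0.275 in the skipped-exon events with the most reads. In the events with the smallest p, inclusion was 0.507 and 0.408, so how much each exon was used depends on the event.

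Enzyme genes among the 11 were Mettl17, Mettl2, Eef1akmt2 and Selenoi. Mettl17, a methyltransferase-like protein of mitochondria, had levels of 0.293, 0.328 and 0.318 in the first set and 0.194, 0.211 and 0.195 in the second. Mettl2, a tRNA methyltransferase, had 0.375, 0.400 and 0.311 against 0.288, 0.194 and 0.263. Eef1akmt2, which methylates a translation elongation factor, had 0.607, 0.695 and 0.672 against 0.549, 0.573 and 0.485. The first set was higher in these genes with no overlap, and both exons of each were included above 0.99 as skipped exons. Selenoi, an enzyme of phosphatidylethanolamine synthesis, had 0.754, 0.806 and 0.783 against 0.702, 0.658 and 0.646. Med15, a subunit of the Mediator complex, had 0.300, 0.359 and 0.343 against 0.240, 0.248 and 0.155, again with no overlap.

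An exon of the pair also changed in the table of skipped exons in 12 of 35 changed members (34.3%), the first exon in 11 and the second in 1. Of the other 4354 members, 92 (2.11%) held an exon that changed there. Pair and exon went the same way in 9 of the 12, and the opposite way in Magohb, N4bp2 and Klc1. Both tables count reads of the same libraries, so they are not independent. Both exons were included at 0.95 or more in 11 of the 31 changed members with both exons listed (35.5%), against 81.7% of all members. The pairs of matching frame showed the same gap, with 12 of 35 changed pairs (34.3%) against 78.8% of all. Of the 27 changed members with a rebuilt frame, 9 (33.3%) met an early stop codon in both single-exon forms, 16 (59.3%) in 1 of them and 2 (7.41%) in neither. Over all 3706 members with a rebuilt frame these shares were 24.4%, 62.4% and 13.1%. The flanks skipped annotated exons in 11 of these 27 (40.7%), against 24.5% of those 3706.

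Pairs with a sum of inclusions between 0.8 and 1.2 lay in 72 genes. The less included exon was annotated only in a decay or non-coding transcript in 54 of the 99 and coding in 32. By the authors' FDR, 8 of the 99 passed 0.05, beside 1.94% of all members and 2.46% of all events with enough reads. Several of the 8 were Gas5 pairs that share a 41-nt exon, so the 8 are not separate results. Of the 8, 1, in Anxa7, also had a difference of at least 0.1. The 3 genes with the most reads among the 99 are given here, named after their values were seen. Cd74, the invariant chain of class II histocompatibility molecules, had a second exon included at 0.164, and levels of 0.889, 0.913 and 0.896 in the first set and 0.957, 0.946 and 0.951 in the second. The second set was higher throughout, with a difference of -0.052 and an FDR listed as 0 in the authors' deposited table. Rps19 encodes a protein of the small ribosomal subunit, and its 81-nt exon in a transcript annotated for decay was included at 0.0276, beside 0.9998 for its coding partner. Its difference was 0.002 with an FDR of 0.813 in the authors' deposited table. Gas5, a non-coding host of small nucleolar RNAs, had levels of 0.816, 0.859 and 0.870 against 0.782, 0.775 and 0.808 in its best-covered such pair. The sets did not overlap, and the difference was 0.060 with an FDR of 0.000528 in the authors' deposited table. These differences lay under the minimum used here.

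Of 20 genes known for mutually exclusive exons, 1 held members and 12 an event of matching frame. Dnm1, which encodes a dynamin, held 3 members, and none of them changed. The one with the smallest p joined exons of 37 and 135 nt. Its levels were 0.891, 0.750 and 0.718 in the first set and 0.766, 0.552 and 0.457 in the second. The sets overlapped, the thinnest library held 9 reads, and in the authors' deposited table the difference was 0.195 with an FDR of 0.192. The changed events in that list were in Tpm1 and Tpm2, which encode tropomyosins, and match in frame (76 and 76 nt each). Their differences were -0.236 and -0.462 in the authors' deposited table. Ptbp2 and Ptbp3, the paralogues of Ptbp1, held no member.

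At the minimum of 20 reads the nearest pairs inside were those of Ros1, Slc39a11 and Zfp939, each with a mean of 20.0 reads. The nearest outside were those of Cep63, Sh2d2a and Slc4a1ap, each with 19.8. None of the 6 changed. Gas5 held the most members, 54, while 61.6% of the genes held 1.

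The gene-level table gives 1 mean per genotype in FPKM and names the groups. Ptbp1 stood at 230.0 FPKM in WT and 122.8 in PTBP1_KO (log2 fold change -0.91, q 0.0125, authors' deposited table), so its message was lower and still present. The level of a message in a bulk sample cannot tell fewer cells of a type from less RNA per cell. Among the 2434 genes with a member that were tested, 6 (0.247%) passed a q of 0.05, beside 0.537% of all 15460 genes tested, and 59 (2.42%) had an unadjusted p under 0.05, beside 672 (4.35%) of all genes tested. Ccng1, a cyclin induced by p53, and Gzma, a protease of cytotoxic lymphocytes, were higher in PTBP1_KO. Dqx1, a putative RNA helicase, Sh2d6, an adaptor with an SH2 domain, Alox5, the 5-lipoxygenase, and Ptbp1 were lower. The summed FPKM of 4 immune markers went from 21.4 to 33.4, of which Cd8a passed q, and that of 2 tuft cell markers from 27.9 to 19.7. That of 3 Paneth cell markers went from 2476 to 4173, of which Mmp7 passed q, at 154 FPKM in WT and 236 in PTBP1_KO. Their part in these gene levels was not tested.

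Of the 30 tested genes with a changed pair, only Ptbp1, the gene targeted in these mice, passed q (3.33%, beside 0.537% of all genes tested). An unadjusted p under 0.05 was found for 5 of the 30 (16.7%), beside 4.35% of all genes tested. These were Ptbp1, Tead3, Ccdc34, Magohb and Sh3d21. Tead3 stood at 20.7 FPKM in WT and 35.0 in PTBP1_KO, with a q of 0.0842 in the authors' deposited table. The 20 factors of nonsense-mediated decay, from Upf and Smg genes to subunits of the exon junction complex, held no gene past q and 2 of 20 with an unadjusted p under 0.05, beside the 4.35% of all genes tested. These were Magohb, at 37.7 and 52.2 FPKM, and Rnps1, at 55.9 and 71.9. The third smallest p was that of Eif4a3, at 92.0 and 77.7 FPKM. The median log2 ratio of the list, with a pseudocount of 1 FPKM, was -0.05, beside 0.02 for all genes tested.

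The epithelial origin of the libraries was borne out by the 8 epithelial markers, which summed to 3828 FPKM in WT and 4130 in PTBP1_KO. The 4 immune markers lay between 4.30 and 5.96 FPKM each in WT, stroma and muscle summed to 6.10 and 7.12, endothelium to 0.588 and 0.645, and neurons and glia to 0.95 and 0.889. No marker was listed at 0. The part of these cells in the splicing levels was not tested, since the sets carry no genotype.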

How the data were processed

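Splicing was read from the MATS table of mutually exclusive exons and that of skipped exons, named as MATS output per the labels. The authors deposited for each event the reads of both forms in every library, the form lengths, a difference of inclusion (other units, a number from -1 to 1) and p-values with their FDR. Gene levels are the FPKM means of each genotype that the authors deposited, with log2 fold changes, p-values and q-values; the tools listed in the submitters' processing notes are bcl2fastq 2.20, Trimmomatic 0.38, STAR 2.6.1d, Cufflinks and Cuffdiff, on mm10. The MATS version and its settings are not given in the sources used here.

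Levels were recomputed per library from reads and form lengths and tested on simulated data (Python 3.11.15, pandas 2.3.3, scipy 1.17.1). They are shares with no test of their own, and calls rest on the authors' FDR. Headers give no genotype for the sets, so no comparison by genotype, mean or SD was made for splicing. Per library, 5006095 to 6514768 reads covered the pairs. Where an exon had several skipped-exon events, its inclusion comes from the event with the most reads and its difference from that with the smallest p. Exons were matched to GENCODE M21, and frames were rebuilt from its transcripts, each form translated from the annotated start codon. The 18 columns of per-library values of the other 3 event types were not used. Intron sequence near the exons was not analysed here. The pair of 1 of the 20 genes is counted but not reported here.

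Genes were named by rule. Named were the changed pair with the largest difference in 20 genes, the smallest p for Ptbp1 to Ptbp3 and the textbook genes, the 5 pairs with most reads, the pairs next to the read minimum, the decay factors with the 3 smallest p-values and member genes past q. Members and lists were chosen with earlier results of these data known. Alternatives were other read minimums, differences and FDR limits, merged events, coding exons only, a library left out, levels without form lengths and, added after seeing the data, centring on the median level of each library.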

Additional observations from a re-analysis of the deposited data

How the results depend on the processing

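Of 17 alternatives, 14 left the count of 35 changed pairs within 1.5 times its value. It was 69 with a minimum difference of 0.05, 7 with 0.2 and 21 with an FDR below 0.01. For pairs of matching frame (40) the same differences gave 74 and 17. For the whole table (75) they gave 143 and 24, and the stricter FDR gave 48. Leaving out 1 library in turn, with the authors' FDR kept, gave 32 to 37 changed pairs, 39 to 46 of matching frame and 72 to 83 in all. Of the 20 largest differences, 1 per gene, 19 stayed at 0.1 or more without any single library and none turned; Tmem173 was the exception. All 20 held without the form lengths. The median of the decay factors was -0.05 with a pseudocount of 0.1 as well.

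No paired analysis was possible because the splicing columns carry no replicate numbers and the gene table holds 1 mean per group. Depth limits the thinnest pairs: 4 of the 35 changed pairs had a library under 20 reads, and 123 of all members did.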
